A study of Mus musculus with 12 samples.

Results

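The genes described here code for the secreted Wnt proteins, the receptors that bind them and the secreted proteins that modify that binding. They were chosen by symbol alone, as the Wnt, Frizzled (Fzd), Sfrp, Frzb, Dkk, Wif1, R-spondin (Rspo), Lrp5, Lrp6, Ror, Ryk and Lgr genes of the table the authors deposited. The choice gave 51 of 23079 genes, of which 31 had enough counts to be tested. By role these were 10 of 19 Wnt ligands, 9 of 10 Frizzled receptors, 4 of 5 co-receptors and alternative receptors, 5 of 10 secreted inhibitors, and 3 of 7 R-spondins and Lgr receptors.

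RNA was sequenced from neurons of the pontine nucleus, a hindbrain relay from cortex to cerebellum, in CD-1 mouse embryos at E18.5. For each replicate 2000 labelled neurons were sorted by FACS, and SPIA amplification started from RNA equal to that of 1000 cells. The 6 reference libraries carry the label Math1tdTomato, tdTomato being a red fluorescent protein and Math1 (Atoh1) a gene of rhombic lip progenitors, from which pontine neurons descend. Their columns divide into 3 that name creErt2, called the creErt2 references, and 3 that name tdT, called the tdT references. The 3 libraries labelled Hoxa5tdTomato have columns that name Hoxa5 and cre, Hoxa5 being a homeobox gene of hindbrain and spinal cord patterning. The 3 libraries labelled Math1Hoxa5-IRES-GFP, called the IRES-GFP-labelled libraries below, have columns that name Math1, Cag, lsl and Hoxa5. The labels do not say whether libraries of 1 group came from separate embryos or litters, so p-values measure only the spread between these libraries, which may be technical.

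Wnt proteins are secreted, lipid-modified signals that bind Frizzled receptors. With the co-receptors Lrp5 and Lrp6 this binding stabilises beta-catenin, while Ror and Ryk receptors and the planar polarity proteins carry signals that act on cell shape and axon growth without it. Sfrp, Frzb and Wif1 proteins bind Wnts outside the cell, most Dkk proteins act on Lrp5 and Lrp6, and R-spondins act through Lgr receptors to keep Frizzled at the cell surface; in hindbrain and spinal cord, Wnt gradients are known for guiding migrating neurons and growing axons.

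Promoter sequence was looked at because Hoxa5, the gene named in both compared groups, codes for a factor that binds DNA motifs with a TAAT core. RefSeq promoter windows of the GRCm38.p6 build matched 34 of the 51 genes, in 37 windows, and only the 250 bases before the start were read. The letters TAAT, on either strand, stood in 10 of the 37 windows (27%), against 54.9% of all 32851 windows of the same length. The base composition of the windows was not taken into account, and some genes had several windows. The difference in these shares is therefore a description only. The longer motif TGATTNAT was in 0 of 37 windows (2.82% of all), and CTTTGAT, a core bound by the Tcf and Lef partners of beta-catenin, in 2 of 37 (5.41%, against 3.21% of all), with both strands searched. The 2 windows below are shown because Fzd1 and Ror1 are 2 of the receptor genes whose values are described further on. The Fzd1 window lies on the minus strand at chr5:4758217-4758466 and held 2 core matches, written in capitals, which on the printed strand read as the reverse complement of the core. The Ror1 window lies on the plus strand at chr4:100095541-100095790 and held 0.
Fzd1: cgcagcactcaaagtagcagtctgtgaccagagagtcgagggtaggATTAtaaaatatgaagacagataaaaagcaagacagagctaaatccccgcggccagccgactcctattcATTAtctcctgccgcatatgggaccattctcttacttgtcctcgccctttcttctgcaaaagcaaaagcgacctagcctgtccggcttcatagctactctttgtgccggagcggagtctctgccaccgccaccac
Ror1: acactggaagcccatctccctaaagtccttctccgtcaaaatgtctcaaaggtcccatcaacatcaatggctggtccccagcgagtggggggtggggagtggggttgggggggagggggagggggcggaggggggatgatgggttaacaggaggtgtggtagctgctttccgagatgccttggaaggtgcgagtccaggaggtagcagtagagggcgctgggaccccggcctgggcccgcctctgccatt
A match marks letters only and is no evidence of binding, and the absence of one says nothing about the factor. Sfrp4, Wnt5a, Fzd3 and Sfrp1 had no entry in that table.

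Total counts ran from 9973484 to 13302076 per library for Hoxa5tdTomato and the creErt2 references, called set 1 here, and from 22355961 to 29820776 for the IRES-GFP-labelled libraries and the tdT references, called set 2. The sets were drawn from the words of the column names and from no stated batch, and set and depth cannot be told apart. Levels are given as CPM, a count divided by its library's total in units of 1e+06 after TMM scaling, on which 3 counts in a library came to between 0.107 and 0.274. Hoxa5 stood at 127, 222 and 119 CPM in Hoxa5tdTomato, against 4.35 to 32.2 in the 6 references (log2 fold change 3.46 ± 0.59, edgeR adjusted p = 0.00712). In the IRES-GFP-labelled libraries it stood at 9.73, 16.8 and 82.0 CPM, so that 2 of the 3 lay among the references and the label was not borne out by this gene (1.35 ± 0.59, adjusted p = 0.255, and -0.10 without the third of them). The Hoxa5tdTomato value missed the threshold without the second Hoxa5tdTomato library (adjusted p = 0.0693) and against the creErt2 references alone (0.0698). Pontine and glutamatergic markers were present in every library, with all 16 of 16 listed genes counted in each group. Their sums were 4919 to 5442 CPM in Hoxa5tdTomato and 6868 to 9370 in the references. Against the references 1 of these 16 passed in Hoxa5tdTomato, Nfib, which was lower. In the IRES-GFP-labelled libraries Lhx2 was lower and Snap25 higher. The third IRES-GFP-labelled library stood apart, with a lowest r of 0.860 to its replicates across genes and 13 of the 31 tested genes of the Wnt system at 0 counts (41.9%, against 13.5% of all tested genes). The other 11 libraries had 0 to 7 of them at 0.

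To compare one gene with another, levels were divided by gene length (RPKM), which set a few members of each role far above the rest. Fzd3, a Frizzled receptor needed for the guidance of many long axon tracts, had the highest level of all 51 genes, 77.1 ± 22.1 RPKM (SD, n = 12), above 96.7% of the tested genes. It made up 83.7% to 92.2% of the summed Frizzled RPKM in every library. Lgr4, a receptor for R-spondins, followed at 36.1 ± 10.1 RPKM and made up 89.1% to 99.5% of its role. Sfrp1, a secreted Wnt-binding protein, stood at 25.5 ± 10.03 RPKM, Lrp6 at 14.5 ± 3.22, Ryk at 14.4 ± 4.35 and Sfrp4 at 11.6 ± 8.28. Lrp6 and Ryk, neighbours in this order, differed by far less than their spread.

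Among the ligands Wnt5a, best known for beta-catenin-independent signalling and as a partner of Ror and Ryk receptors, had the highest mean level, 3.87 ± 3.32 RPKM (SD, n = 12). That mean lay below those of Fzd3, Lgr4, Lrp6 and Ryk and above those of the other 9 Frizzled receptors, of which Fzd7 and Fzd1 were within its spread. Wnt7a (2.60 ± 1.499), Wnt2b (2.39 ± 0.99) and Wnt3 (2.18 ± 1.33) came next, within the spread of each other. Each of the other 15 ligands was under 0.5 RPKM on average. Summed over all 19 ligands, the level was 10.1 to 19.5 RPKM in the references, 11.5 to 17.1 in Hoxa5tdTomato and 4.28 to 10.04 in the IRES-GFP-labelled libraries, which lay below every reference.

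**Figure D1:**
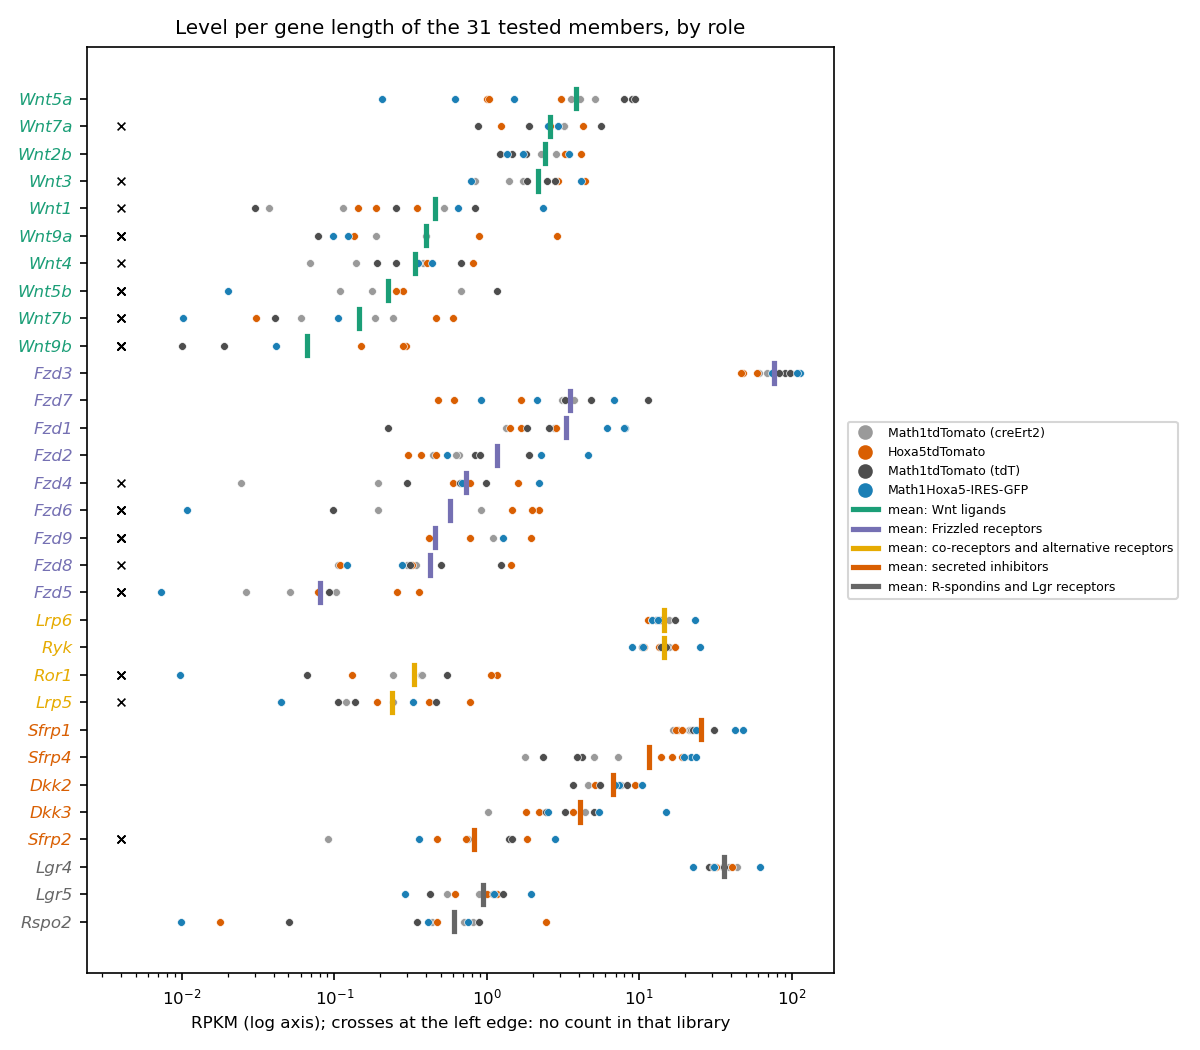
Level of each tested gene of the Wnt system in RPKM on a log axis, by role. Each point is 1 library, coloured by column group, vertical bars are means over the 12 libraries, and crosses mark libraries with no count. Fzd3 lies at 77.1 RPKM on average, and the highest ligand, Wnt5a, at 3.87.

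The first comparison, between Hoxa5tdTomato and the 6 Math1tdTomato references, found 1 gene of the Wnt system changed. Sfrp4, a secreted inhibitor of the Frizzled-related family, was 2.01 ± 0.32 higher on the log2 scale, and no other of the 31 tested genes passed. Wnt5a, Fzd3 and Fzd7 lay below all references in all 3 Hoxa5tdTomato libraries without passing the test. They made 3 of 31 (9.68%), against 6.93% of all tested genes that lay below in this way. Over all 14732 tested genes 1.73% passed in this comparison (0.842% in the higher direction), against 1 of 31 here (3.23%). In the fit against the creErt2 references alone 0 of 31 passed (0.557% of all tested genes), with 5 at an unadjusted p under 0.05 (16.1%, against 8.91% of all). Of the 31 genes 7 (22.6%, against 5.24% of all tested genes) would not have passed the filter on low counts without the Hoxa5tdTomato libraries. For Fzd5, Fzd6, Fzd9 and Wnt9b no other group was needed, so that the filter itself selects for higher values there; Wnt5b, Wnt7b and Wnt9a needed the references as well. The median log2 fold change of the 31 genes, 0.40 against 0.0049 over all tested genes, includes them and is a description only.

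Sfrp4 (chromosome 13, 19623175 to 19632825, GRCm38.p6, with no overlapping gene in that annotation) stood at 55.7, 76.0 and 64.8 CPM in Hoxa5tdTomato. The creErt2 references held 20.2, 28.8 and 7.06 CPM, and the tdT references 16.8, 9.28 and 15.6. All 3 Hoxa5tdTomato libraries therefore lay above all 6 references, with means of 65.5 ± 10.2 (SD, n = 3) and 16.3 ± 7.82 (SD, n = 6). The edgeR quasi-likelihood test gave a log2 fold change of 2.01 ± 0.32 (SE) with an adjusted p of 0.00453. Against the 3 creErt2 references alone, in a fit of 4 groups, it was 1.81 ± 0.39 and missed the threshold (adjusted p = 0.0526). In bulk samples such as these, a difference in the number of cells of a type and a difference in RNA per cell cannot be told apart.

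Wnt5a (chromosome 14, 28504543 to 28527448, with no overlapping gene) stood at 4.36, 4.51 and 13.4 CPM in Hoxa5tdTomato. The creErt2 references held 17.9, 22.6 and 15.5 CPM, and the tdT references 39.0, 34.7 and 41.2. The Hoxa5tdTomato libraries were the lower ones throughout, the third of them close to the lowest reference. The references themselves did not overlap by column name, and their difference did not pass either (-1.04 ± 0.58, adjusted p = 0.490). The log2 fold change against all references was -1.95 ± 0.59 (adjusted p = 0.106), and against the creErt2 references -1.33 ± 0.59 (adjusted p = 0.514). It passed with DESeq2 (adjusted p = 0.0153), where 593 of 14609 tested genes did. In edgeR it passed without the third IRES-GFP-labelled library (adjusted p = 0.0243), a library outside this comparison that enters the estimate of the spread.

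Among the receptors, Fzd3 stood at 615, 594 and 749 CPM in Hoxa5tdTomato, at 772, 954 and 876 in the creErt2 references, and at 1159, 1053 and 1242 in the tdT references. The 3 Hoxa5tdTomato libraries were below all references, by a narrow margin from the creErt2 ones, and the log2 fold change was -0.63 ± 0.17 (adjusted p = 0.0777). The predicted genes Gm52141 and Gm9086 overlap Fzd3 in the annotation. Fzd7, a receptor often linked to progenitor cells, stood at 2.94, 2.29 and 8.05 CPM in Hoxa5tdTomato. The references held 15.01, 17.9 and 15.8 CPM in the creErt2 columns and 55.1, 15.7 and 23.1 in the tdT columns. The groups did not overlap, and the value was -2.43 ± 0.67 (adjusted p = 0.0787). Both passed with DESeq2 (adjusted p = 0.0347 and 0.00328), where 593 of 14609 tested genes did. In edgeR fits of set 1 by itself both passed too (0.0346 and 0.0191), with 980 of 13629 tested genes called. Fzd3 and Fzd7 each passed without the first IRES-GFP-labelled library (adjusted p = 0.0433 and 0.0440) and without the third (0.0348 for both). Fzd3 also passed without the first creErt2 reference (0.0476), and Fzd7 without the second IRES-GFP-labelled library (0.0481).

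Wnt2b, Wnt9b and Fzd6 also had all 3 Hoxa5tdTomato libraries above the references without passing the test. With Sfrp4 they made 4 of 31 (12.9%), against 7.15% of all tested genes that lay above in this way. Fzd6 and Wnt9b are 2 of the 4 genes that only the Hoxa5tdTomato libraries took past the filter. Fzd6, a receptor of the planar polarity branch, stood at 9.07, 6.06 and 8.14 CPM in Hoxa5tdTomato. It stood at 0.80, 0 and 3.80 CPM in the creErt2 references and at 0, 0.41 and 0 in the tdT references (3.24 ± 1.34, adjusted p = 0.255). Wnt2b stood at 12.1, 11.6 and 14.9 CPM against 4.35 to 10.1 in the references (0.93 ± 0.44, adjusted p = 0.340), and it overlaps St7l. Wnt9b, a ligand of kidney and facial development, stood at 1.33, 0.67 and 1.28 CPM, against 0 in the creErt2 references and 0, 0.05 and 0.09 in the tdT references. It had 39 counts in Hoxa5tdTomato and 3 in the references together, given as a description; Wnt9b and Wnt3 overlap each other, and the strand setting of the counting is not given in the sources used here.

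Markers of blood vessels were also high in Hoxa5tdTomato. All 11 listed endothelial markers were counted there, with sums of 87.4 to 171 CPM, against 2.58 to 23.3 in the creErt2 references, where Tie1 was at 0, and 0.75 to 18.7 in the tdT references, where Ly6c1 was at 0. All 10 pericyte and mural cell markers were counted there too, with sums of 110 to 233 CPM against 3.21 to 27.2 in the references, in which Anpep was at 0. Of the tested endothelial markers 1 of 10 rose (Esam) and of the pericyte markers 3 of 9 (Abcc9, Anpep and Rgs5). The part of these cells in the values of Sfrp4, Fzd6, Wnt2b and Wnt9b was not tested.

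**Figure D2:**
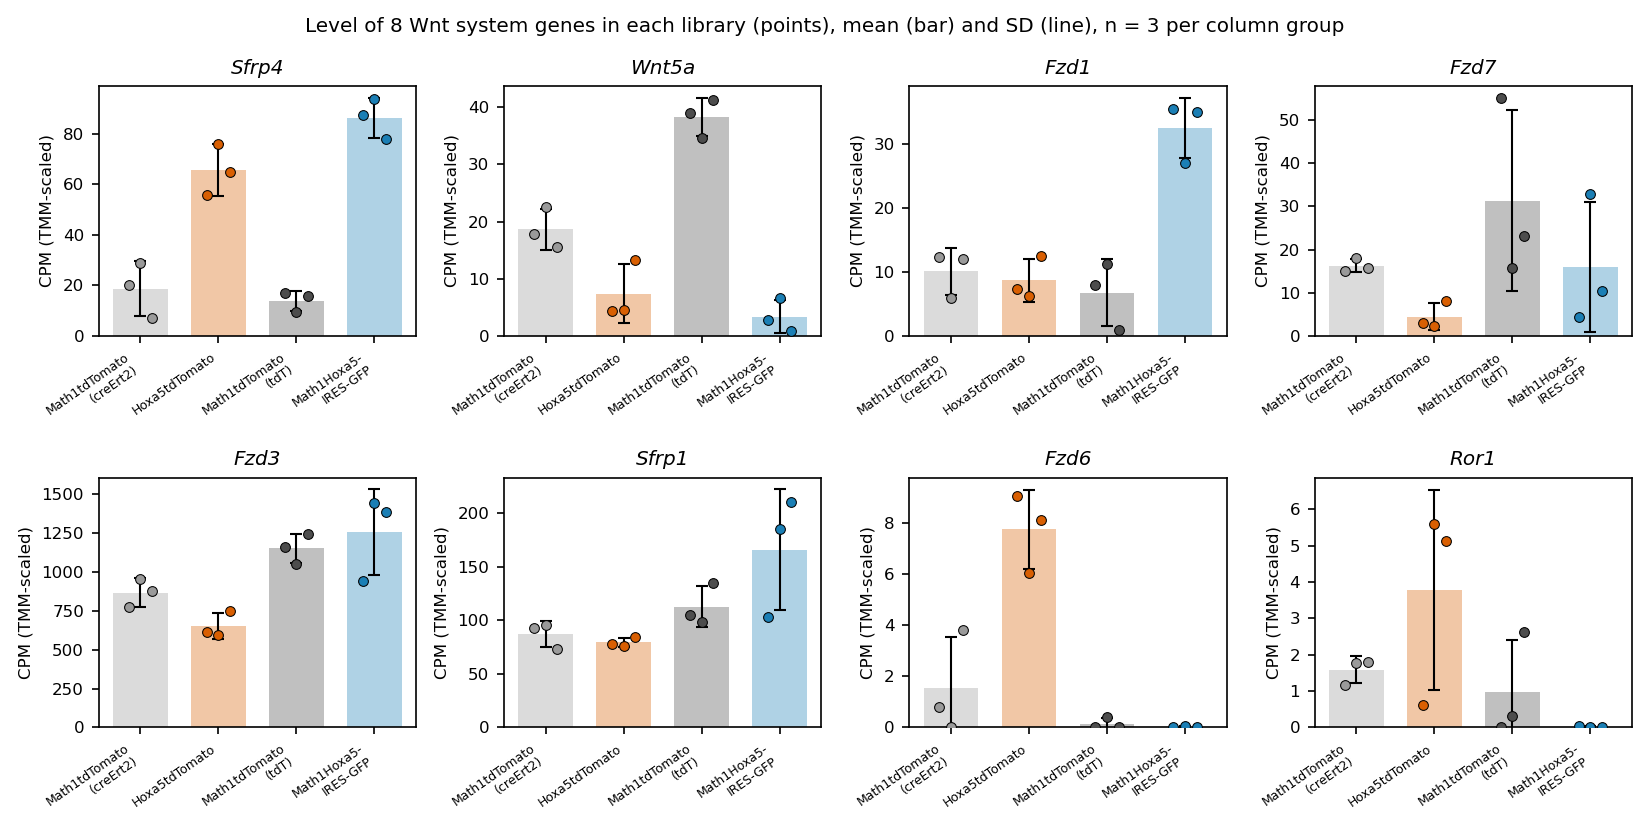
CPM of 8 genes of the Wnt system in each library. Bars are means, lines SD (n = 3 per column group) and points libraries; each axis is linear and starts at 0. Sfrp4 lies at 55.7 CPM or above in Hoxa5tdTomato and the IRES-GFP-labelled libraries and at 28.8 or below in the references, and Wnt5a shows the opposite order.

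In the second comparison, between the IRES-GFP-labelled libraries and the references, Sfrp4 rose and Wnt5a fell. The changes were 2.41 ± 0.32 and -3.07 ± 0.63 on the log2 scale, and no other gene of the Wnt system passed. The 2 of 31 (6.45%) compare with 1.84% of all tested genes called in either direction, 1.3% higher and 0.543% lower. Both also passed against the tdT references alone, where 0.862% of all tested genes did. The median of the 31 genes was 0.12, against -0.0018 over all tested genes. Both comparisons use the same 6 references, so that their values are not independent of each other.

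Sfrp4 stood at 87.1, 93.6 and 78.0 CPM in the IRES-GFP-labelled libraries, a mean of 86.2 ± 7.83 (SD, n = 3). Each was above every reference, the highest of which held 28.8 CPM. The endothelial marker sums of these 3 libraries were 1.02, 45.0 and 0.20 CPM and the pericyte sums 23.98, 64.2 and 5.57. The second, with the most Sfrp4, was above every reference in both sums, and the part of these cells in the Sfrp4 values was not tested. The adjusted p was 0.000546 (edgeR). Against the tdT references alone the log2 fold change was 2.63 ± 0.40 (adjusted p = 0.00439). The test of the difference between the changes within the sets gave -0.82 ± 0.54 (adjusted p = 0.738), and Hoxa5tdTomato and the IRES-GFP-labelled libraries, compared directly, gave -0.40 ± 0.38 (adjusted p = 0.584).

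Wnt5a stood at 2.70, 6.57 and 0.90 CPM in the IRES-GFP-labelled libraries, a mean of 3.39 ± 2.89 (SD, n = 3) against 28.5 ± 11.2 in the references (SD, n = 6). The highest of the 3 was below the lowest reference, 15.5 CPM, and the adjusted p was 0.0144 (edgeR). Against the tdT references alone the log2 fold change was -3.49 ± 0.63 (adjusted p = 0.0134). In a fit of the 6 libraries of set 2 by themselves, where 10 of all genes passed, Wnt5a had an adjusted p of 0.143. The change within set 1 and that within set 2 differed by 2.16 ± 0.83, which did not pass (adjusted p = 0.577).

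Fzd1, a Frizzled receptor, is given here because its libraries did not overlap, a choice made after its values were seen. It stood at 35.4, 27.0 and 34.96 CPM in the IRES-GFP-labelled libraries. The references held 12.3, 5.86 and 12.0 CPM in the creErt2 columns and 8.02, 11.3 and 0.99 in the tdT columns, and Hoxa5tdTomato 7.38, 6.19 and 12.4. The 3 IRES-GFP-labelled libraries were the highest of all 12, with a log2 fold change of 1.95 ± 0.51 (adjusted p = 0.0624). Without the third tdT reference, the lowest library, it was 1.71 and passed (adjusted p = 0.0294), and it also passed with no filter on low counts (0.0435) and on thinned counts (0.0273). Genes with every IRES-GFP-labelled library above the references were 2 of 31 (6.45%, against 3.11% of all tested genes), Sfrp4 and Fzd1, and 1 of 31 (3.23%, against 3.27%), Wnt5a, lay below.

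Several receptors and ligands of low level were nearly uncounted in the IRES-GFP-labelled libraries. In the 3 libraries 9.68%, 19.4% and 41.9% of the 31 were at 0 counts, against 3.66%, 4.72% and 13.5% of all tested genes. The tdT references had 22.6%, 16.1% and 12.9% of the 31 at 0 (5.24%, 2.99% and 4.45% of all tested genes). The creErt2 references had 6.45%, 9.68% and 9.68%. Only the third IRES-GFP-labelled library thus lay above the references in this share. To pass the filter on low counts, 0 of the 31 needed these libraries. Fzd6 needed the Hoxa5tdTomato libraries, and Wnt5b needed those and the references. For both, the filter itself thus selects for lower values in the IRES-GFP-labelled libraries. Ror1, a Wnt5a receptor of the receptor tyrosine kinase class, had 1 count in all in the IRES-GFP-labelled libraries and 121 in the references, a ratio of 0.0139 in CPM (95% exact interval 0.000349 to 0.0789, adjusted p = 0.105). It stood at 1.15, 1.78 and 1.81 CPM in the creErt2 references and at 0, 0.32 and 2.61 in the tdT references. The groups overlapped, and 61 of the 121 counts came from the third tdT reference. Fzd6 had 1 count against 60 (adjusted p = 0.197), of which 42 came from the third creErt2 reference and 9 from the second tdT reference. Wnt5b, a close relative of Wnt5a, had 1 against 95 (adjusted p = 0.242). Wnt5b stood at 1.69, 0.44 and 0.27 CPM in the creErt2 references, at 0, 0 and 2.91 in the tdT references and at 0.71, 0 and 0.64 in Hoxa5tdTomato, so that 68 of the 95 counts came from 1 library; 4 annotated genes overlap it. Without the first tdT reference Ror1 passed (adjusted p = 0.0476). These ratios and their intervals reflect counting error alone, because copies made by amplification are not separate molecules. Sfrp1 stood at 103, 185 and 210 CPM against 73.3 to 135 in the references, with overlap (0.73 ± 0.21, adjusted p = 0.0899), and passed without the first IRES-GFP-labelled library (adjusted p = 0.0154). Dkk3, a divergent Dkk family member, stood at 18.3, 8.59 and 51.0 CPM, against 14.8, 3.47 and 8.24 in the creErt2 references and 8.27, 17.0 and 11.1 in the tdT references (1.31 ± 0.52, adjusted p = 0.205).

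**Figure D3:**
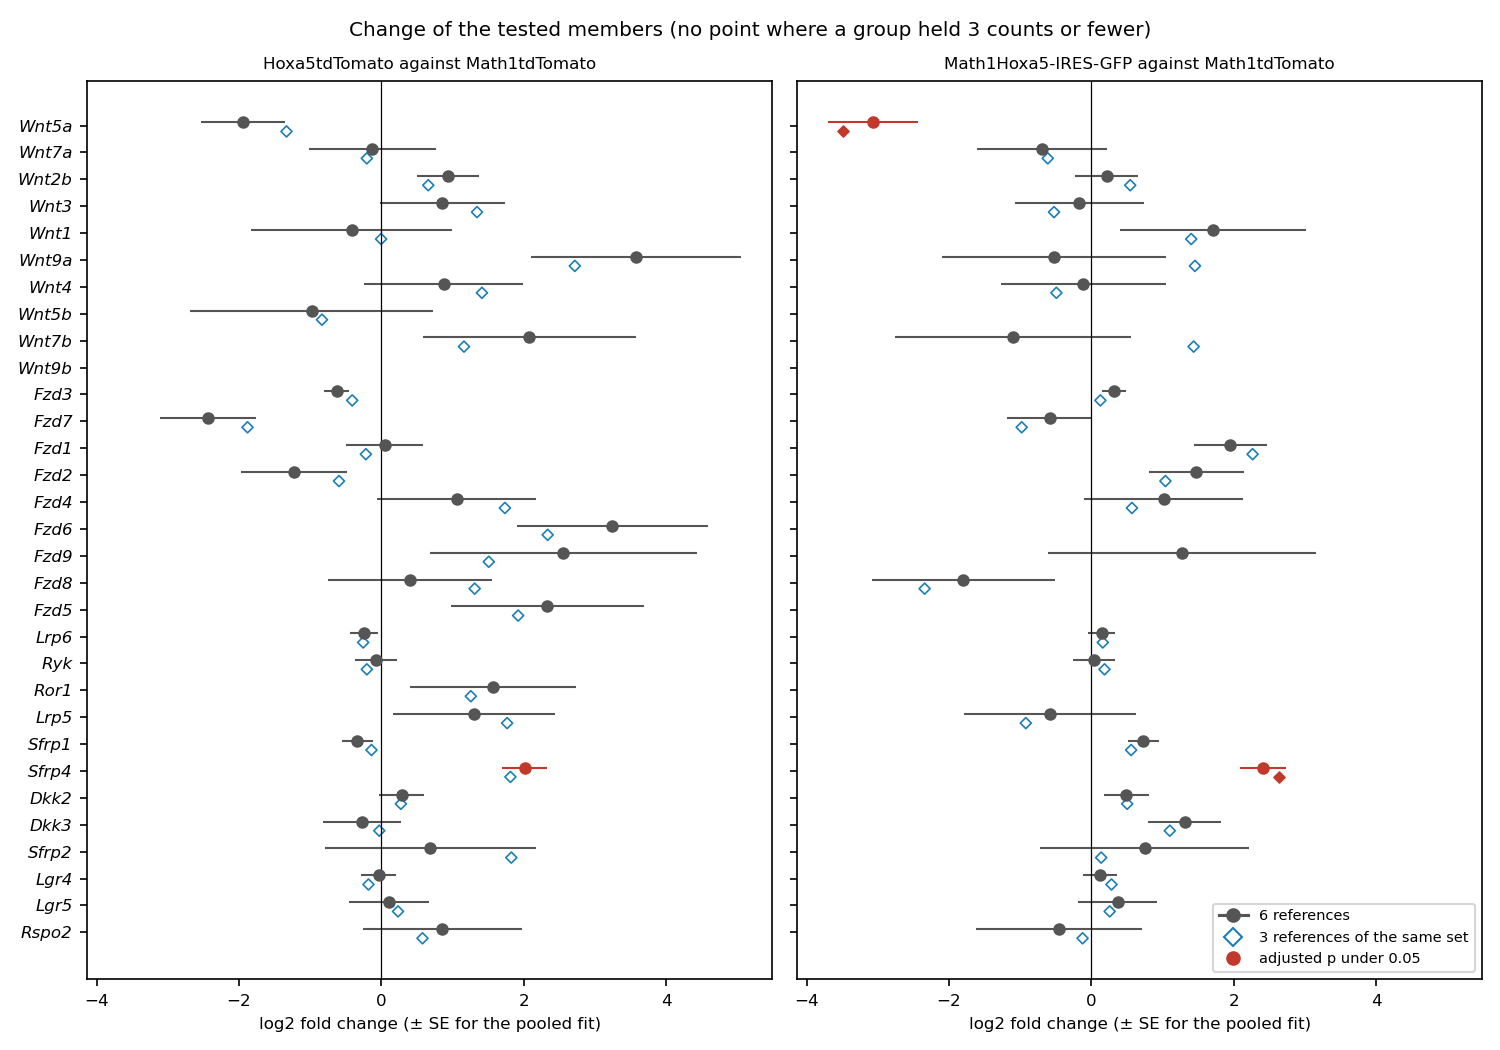
Log2 fold change of the tested genes of the Wnt system against Math1tdTomato. Circles with SE bars use all 6 references, diamonds the 3 references of the same set, red marks an adjusted p under 0.05, and no point is drawn where a group held 3 counts or fewer. Sfrp4 is red in both panels for 6 references, and Wnt5a only for the IRES-GFP-labelled libraries.

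The make-up of the ligand and inhibitor RNA differed between the groups in both comparisons. Wnt5a supplied 31% to 39.3% of the summed ligand RPKM in the creErt2 references and 40.7% to 63.0% in the tdT references. It supplied 6.88% to 17.9% in Hoxa5tdTomato and 4.82% to 14.96% in the IRES-GFP-labelled libraries, below every reference. The 4.82% came from the third IRES-GFP-labelled library, the one that stood apart. There Wnt1 held 54.4% and Wnt2b 40.3%, and Wnt3 and Wnt7a were at 0. Sfrp4 supplied 6.08% to 18.8% of the summed inhibitor RPKM in the references, 29.8% to 41.5% in Hoxa5tdTomato and 21.0% to 35.9% in the IRES-GFP-labelled libraries, above every reference. The summed inhibitor level was 25.9 to 43.2 RPKM in the references, 43.2 to 46.9 in Hoxa5tdTomato and 61.0 to 93.2 in the IRES-GFP-labelled libraries. These shares rest on the same counts as the tests above and are given as a description.

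**Figure D4:**
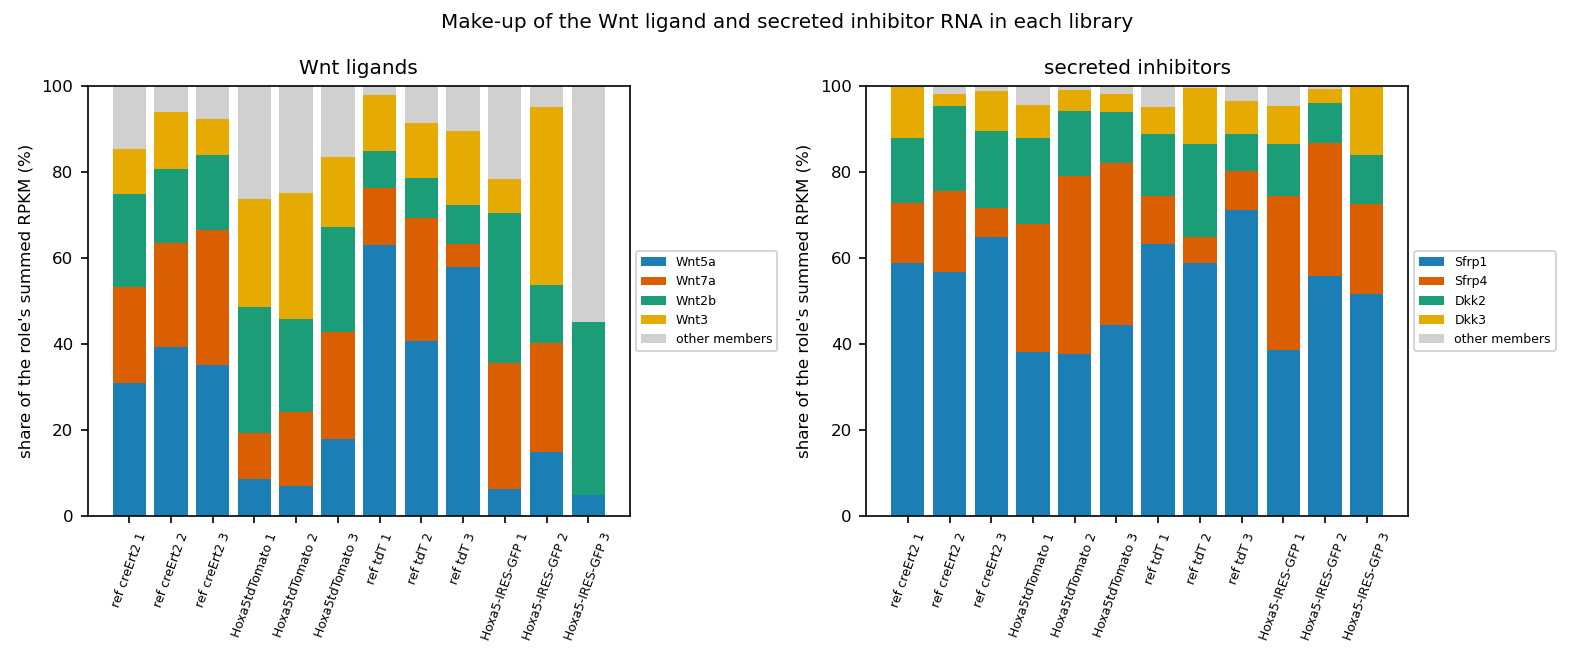
Share of the summed RPKM of the 19 Wnt ligands (left) and 10 secreted inhibitors (right) held by 4 genes each, in every library, as stacked bars of 100%. Wnt1, at 54.4% in the third IRES-GFP-labelled library, is drawn among the other members. The share of Wnt5a is at most 17.9% in Hoxa5tdTomato and the IRES-GFP-labelled libraries and at least 31% in the references; that of Sfrp4 is at least 21.0% in the former and at most 18.8% in the latter.

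The direct comparison of Hoxa5tdTomato with the IRES-GFP-labelled libraries crosses the sets, so that group, set and depth cannot be told apart in it. Of the 31 genes 3 passed (9.68%, against 3.35% of all tested genes): Fzd3 and Sfrp1 were lower (2.43% of all tested genes) and Ror1 higher (0.916%) in Hoxa5tdTomato. With 4 groups, where 8.08% of all tested genes passed, Fzd6, which passed the filter only through Hoxa5tdTomato, was called as well. The median of the 31 genes was 0.57, against 0.02 over all tested genes. It includes the 7 genes that needed the Hoxa5tdTomato libraries to pass the filter and is a description only. The IRES-GFP-labelled libraries were needed by 0 of the 31. Fzd3 stood at 941, 1443 and 1385 CPM in the IRES-GFP-labelled libraries, all above the Hoxa5tdTomato libraries (-0.94 ± 0.19, adjusted p = 0.0255), and the creErt2 references lay below the tdT references as well (-0.41 ± 0.16, adjusted p = 0.267). Sfrp1 stood at 78.1, 75.7 and 84.0 CPM in Hoxa5tdTomato, below all 3 IRES-GFP-labelled libraries (-1.07 ± 0.26, adjusted p = 0.0386). For this gene too the creErt2 references lay below the tdT references (-0.37 ± 0.23, adjusted p = 0.567). Ror1 stood at 0.62, 5.59 and 5.12 CPM in Hoxa5tdTomato and at 0.05, 0 and 0 in the IRES-GFP-labelled libraries, 146 counts against 1 (adjusted p = 0.0463). Without any 1 of the Hoxa5tdTomato libraries none of these passed, at adjusted p values of 0.0829 to 0.163, when 0 or 1 of all tested genes did. Sfrp1 also missed the threshold without the second tdT reference (0.0530) or the second (0.0680) or the third (0.0791) IRES-GFP-labelled library. Ror1, when single libraries were left out, passed only without the first tdT reference (0.0317) or the first IRES-GFP-labelled library (0.0451). Markers of other cells differed too. Tek (1 of 10 endothelial markers), Gad1 (1 of 6 of GABAergic and glycinergic neurons) and Aldoc (1 of 9 of astrocytes) were higher in Hoxa5tdTomato, and Nfib and Snap25 (2 of 16 pontine and glutamatergic markers) lower. The endothelial sums were 87.4 to 171 CPM against 0.20 to 45.0, and the pericyte sums 110 to 233 against 5.57 to 64.2. The GABAergic and glycinergic sums overlapped, at 202 to 271 CPM against 202 to 363. So did the sums of the astrocyte list, which includes radial glia, at 673 to 1049 against 571 to 937. The part of other cells in the values of Fzd3, Sfrp1 and Ror1 was not tested.

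The creErt2 and tdT references, compared with each other, called 0 of 31 genes of the Wnt system with edgeR and 0 with DESeq2, and 1.34% of all tested genes with edgeR. At an unadjusted p under 0.05 there were 3 of the 31 (9.68%, against 12.9% of all). The edgeR test of the difference between the changes within the sets called 0 of 14732 genes, with 1181 at an unadjusted p under 0.05 (8.02%), among them 4 of the 31 of the Wnt system (12.9%; Fzd1, Fzd3, Ror1 and Wnt5a); it was run with edgeR alone.

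The most abundant co-receptors and R-spondin receptors overlapped between all groups. Lgr4 stood at 222, 195 and 179 CPM in the creErt2 references, at 161, 158 and 207 in Hoxa5tdTomato, at 145, 182 and 155 in the tdT references and at 114, 157 and 315 in the IRES-GFP-labelled libraries. Lrp6, the co-receptor of the beta-catenin branch, stood at 131, 152 and 153, at 112, 119 and 133, at 125, 133 and 168 and at 118, 130 and 227 CPM in the same order of groups. Ryk, an atypical Wnt receptor that repels axons, stood at 48.6, 56.2 and 51.1, at 35.3, 43.8 and 56.1, at 49.2, 45.5 and 34.0 and at 29.4, 82.3 and 34.5 CPM. None passed, the third IRES-GFP-labelled library was the highest of all 12 for Lgr4 and Lrp6, and the second was the highest for Ryk. No direction is given for Lgr4, Ryk, Lgr5, Rspo2 and Wnt7a, or for Lrp6 in the second comparison, since the sign of at least 1 of their folds turned with the settings.

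Lgr5, an R-spondin receptor and stem cell marker, stood at 7.73, 7.37 and 4.53 CPM in the creErt2 references, at 8.36, 5.12 and 9.61 in Hoxa5tdTomato, at 10.6, 9.15 and 3.52 in the tdT references and at 9.22, 16.1 and 2.41 in the IRES-GFP-labelled libraries. Rspo2, an R-spondin ligand, stood at 3.64, 2.22 and 4.17, at 12.5, 2.42 and 0.09, at 1.78, 4.53 and 0.26 and at 2.10, 3.87 and 0.05 CPM in that order. Wnt7a, a ligand that also acts on brain vessels, stood at 9.32, 10.1 and 10.1, at 3.91, 8.21 and 13.5, at 5.99, 17.8 and 2.79 and at 9.27, 8.05 and 0 CPM. In both comparisons with the 6 references the groups overlapped for these 3 genes, and the spread within a group was wide for Rspo2.

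The 20 genes that were not tested had at most 52 counts in any library, the value of Wnt16. Wnt6, Wnt8a and Wnt10a had no count in any library. The others were the ligands Wnt2, Wnt3a, Wnt8b, Wnt10b and Wnt11, the receptors Fzd10, Ror2 and Lgr6, the R-spondins Rspo1, Rspo3 and Rspo4, and the inhibitors Dkk1, Dkk4, Frzb, Sfrp5 and Wif1. Levels of 3 counts or fewer in a library are not detectable apart from 0 at this depth.

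Other genes of the pathway were taken from lists by function, written with earlier results of these data known. The shares called in these lists are therefore a description only. Of 36 tested planar polarity and calcium genes, 1 rose in Hoxa5tdTomato (Plcb1) and 2 in the IRES-GFP-labelled libraries (Plcb1 and Prkcb), with 0 lower in either. These are 2.78% and 5.56%, against 0.842% and 1.3% of all tested genes in the higher direction. Plcb1, a phospholipase C, stood at 124, 124 and 96.7 CPM in Hoxa5tdTomato, at 140, 112 and 169 in the IRES-GFP-labelled libraries and at 51.1 to 83.3 in the references, without overlap. Its log2 fold changes were 0.84 ± 0.19 (adjusted p = 0.0360) and 1.13 ± 0.19 (adjusted p = 0.00449), and it passed within each set in the 4-group fit (adjusted p = 0.0354 and 0.0435) but not in a fit of the 6 libraries of set 2 by themselves (0.96, adjusted p = 0.378). With single libraries left out the second value passed in 12 of 12 fits and the first in 5 of 12, missing without any creErt2 reference, any Hoxa5tdTomato library or the first tdT reference (up to 0.220).

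Prkcb, a protein kinase C, stood at 750, 704 and 752 CPM in Hoxa5tdTomato, at 1009, 1340 and 900 in the IRES-GFP-labelled libraries and at 405 to 586 in the references, again without overlap. It passed in the second comparison (1.09 ± 0.14, adjusted p = 0.00049; 0.128 with set 2 by itself) and had an adjusted p of 0.0766 in the first, where it passed within the set (0.70 ± 0.14, adjusted p = 0.0384) and without the second (0.0430) or the third (0.0269) IRES-GFP-labelled library. Of 14 other extracellular modulators 1 (7.14%) rose in both comparisons and 0 fell, the glypican Gpc6, a cell surface proteoglycan. Gpc6 stood at 52.6, 32.7 and 32.7 CPM in Hoxa5tdTomato, at 74.3, 64.4 and 52.3 in the IRES-GFP-labelled libraries and at 6.17 to 22.6 in the references. Its fold changes were 1.46 ± 0.36 (adjusted p = 0.0464) and 2.15 ± 0.35 (adjusted p = 0.00347), with an adjusted p of 0.318 within set 1 and 0.0134 within set 2, or 0.213 with set 2 by itself. With single libraries left out the second value passed in 12 of 12 fits, and the first in 3 of 12, those without the second creErt2 reference, the second tdT reference or the third IRES-GFP-labelled library (0.0211 to 0.308 over the 12).

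The next lists hold genes that carry the beta-catenin signal and its targets. Of 37 tested genes of this pathway 0 passed in Hoxa5tdTomato and 1 rose in the IRES-GFP-labelled libraries, Tnks, a tankyrase that promotes the turnover of Axin (0.55 ± 0.13, adjusted p = 0.0451, or 0.151 within set 2). Left-out libraries kept that call in 2 of 12 fits, without the second tdT reference or the first IRES-GFP-labelled library (0.0206 to 0.121). The medians were -0.25 and 0.13. In the direct comparison 5 were lower in Hoxa5tdTomato (Apc2, Dvl3, Gsk3a, Gsk3b and Tnks; 13.5%, against 2.43% of all tested genes) and 0 higher; without any 1 Hoxa5tdTomato library 0 or 1 of all tested genes passed there. Apc and Gsk3a were lower in the creErt2 than in the tdT references. Of 13 beta-catenin target genes 0 passed in any of the 3 comparisons. Axin2, the most widely used of these targets, stood at 28.3, 39.8 and 55.3 CPM in Hoxa5tdTomato, at 18.7, 16.1 and 63.4 in the IRES-GFP-labelled libraries and at 29.9 to 43.2 in the references. The groups overlapped, with log2 values of 0.11 ± 0.36 (adjusted p = 0.940) and -0.22 ± 0.37 (adjusted p = 0.810), and the sign of each turned in some settings. The second value rests on the third IRES-GFP-labelled library, without which it was -1.13 and passed (adjusted p = 0.0444). Within set 1 alone Myc passed, at 97.0, 120 and 117 CPM against 47.2, 60.9 and 38.7 in the creErt2 references (1.19 ± 0.25, adjusted p = 0.0462). Against all 6 references Myc had an adjusted p of 0.0505, and it passed without the second tdT reference (0.00832) or the third IRES-GFP-labelled library (0.0243).

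Of 12 tested genes of Wnt secretion and turnover and 4 of the vascular Norrin and Wnt7 co-receptors, 0 passed in any of the 3 comparisons. Wls, the carrier that brings Wnt proteins to the cell surface, stood at 4.45, 10.98 and 10.2 CPM in Hoxa5tdTomato and at 1.54 to 5.34 in the references (1.58 ± 0.57, adjusted p = 0.181), and passed in a fit of the 6 libraries of set 1 by themselves (2.21, adjusted p = 0.0249). The planar polarity genes Vangl2, in the direct comparison (-1.19 ± 0.31, adjusted p = 0.0453), and Celsr2, between the references (-0.84 ± 0.19, adjusted p = 0.0439), were lower in the libraries of set 1. Vangl2 passed in 3 of 12 fits with 1 library left out (without the first creErt2 reference, the first tdT reference or the first IRES-GFP-labelled library), and Celsr2 in 3 of 12, those without an IRES-GFP-labelled library.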

How the data were processed

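The authors deposited raw read counts per gene for 12 libraries, and beside them each gene's length in bases (unit other). The genome build mm10 and bcl2fastq 1.8.4 are named in the submitters' processing notes. The strand setting, aligner, counting tool and annotation were not given in the sources used here. Columns were assigned to groups by name; the numbers of the reference columns could not be matched to sample numbers. Positions came from the RefSeq annotation of GRCm38.p6, which matched all 51 genes. The 15 rows without a symbol stayed in the fits.

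Genes were filtered with filterByExpr (minimum count 10) and scaled by TMM. The test was edgeR's quasi-likelihood test (version 4.0.16, R 4.3.3), with 1 mean per group over all 12 libraries. A 4-group fit, with the references divided by column name, gave the values within sets, its scaling and spread coming from all libraries. Benjamini-Hochberg adjustment was over 14732 genes, with a threshold of 0.05. RPKM is CPM per kilobase of the deposited length. The SE is the log2 fold change divided by the root of F. Ratios with 3 counts or fewer in a group have 95% exact (Clopper-Pearson) intervals. The scripts were tested on simulated data. Alternatives were other scalings, no filter, thinning, the set alone, a replicate block, DESeq2 1.42.0 and each library left out.

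Genes given with every library's value were those past the threshold, the 2 with the highest RPKM of each role and the one with the largest change of each role in each comparison; of the pathway lists, every gene past the threshold is named. Fzd1, Wnt2b, Axin2, Wls and, in the closing section, Fzd2 were added after their values were seen. The genes and lists were chosen with earlier results of these data known. The pathway genes Adgra2, Tiki1 and Tiki2 were not analysed here.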

Additional observations from a re-analysis of the deposited data

Results flagged for a closer look

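Among the 6 references, 29 genes with printed results were examined for a library far from the other 5 by Dixon's test, which chance alone finds in about 1 in 20 groups, and 4 were found. Fzd2 stood at 6.86 CPM in tdT reference 3, with the next highest at 3.26. Fzd6 stood at 3.80 CPM in creErt2 reference 3, with the next at 0.80. Fzd7 stood at 55.1 CPM in tdT reference 1, with the next at 23.1. Tnks stood at 296 CPM in tdT reference 2, with the next at 248.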

How the results depend on the processing

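Of the genes of the Wnt system, 1 was called in Hoxa5tdTomato against the references, and this was 0 with 4 groups, 3 with the libraries of the set alone, 4 with DESeq2, and 1 to 4 with each library left out in turn. Over all genes 82 of 14732, 980 of 13629 and 593 of 14609 passed in the first 3 of these settings. With a library left out 35 to 728 passed. With the set alone, 27 genes of the Wnt system were tested. The 2 called in the IRES-GFP-labelled libraries became 1 with the set alone, 6 with DESeq2, and 2 to 3 with each library left out. Over all genes these settings called 10 of 13410, 831 of 14609, and 190 to 575. Here 23 genes of the Wnt system were tested with the set alone. The 3 called between these groups became 0 with library size as the only scaling, 7 with DESeq2, and 0 to 5 with each library left out. Over all genes these settings called 148 of 14732, 1484 of 14609, and 0 to 1157. The replicate block, where 0 were called, contrasts the 2 changes within the sets and is not the direct comparison. The count between the references was 0 in each setting run. Over all genes the counts of 255, 271 and 493 ran from 35 to 980, 10 to 831 and 0 to 1484. Library size as the only scaling moved the median of all genes to 0.16, -0.13 and 0.30 (log2), and the higher calls from 124 of 255, 191 of 271 and 135 of 493 to 170 of 240, 105 of 199 and 116 of 148.

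With the replicate block the first comparison kept 1 called gene and the second 2, while over all genes the counts became 72 and 77. For the contrast between the 2 changes within the sets, which the block gives in place of the direct comparison, 0 passed. Of the pathway genes, Plcb1 missed with the block in the first and second comparisons (0.0864 and 0.106) and Gpc6 in the first (0.351). Same-numbered libraries of a set deviated together at correlations of -0.03 to 0.05, and unlike-numbered ones at -0.099 to 0.095. With 3 libraries per group these values cannot decide whether the numbers pair the libraries. Sfrp4 in Hoxa5tdTomato missed the threshold only in the 4-group fit (0.0526); without the third IRES-GFP-labelled library, an alternative chosen after seeing the data, it passed there (0.0115). Sfrp4 in the second comparison passed in all 21 alternatives, and Wnt5a missed only with the set alone. Over the 40 printed folds and 816 settings, 666 kept direction and side of the threshold, 95 lost the call, 47 gained it and 8 reversed, none of the last from a called value. These counts include the block's values for the direct comparison, which are the contrast of the changes within the sets. The reversed values were, for Axin2 in the first comparison, -0.018 with 4 groups, -0.0186 with 4 groups without the third IRES-GFP-labelled library, -0.069 with the replicate block, and -0.16 without Hoxa5tdTomato replicate 3, in a range of -0.16 to 0.32 with each library left out. For Axin2 in the second comparison they were 0.062 and 0.12 without IRES-GFP-labelled replicates 1 and 2, in a range of -1.13 to 0.12. For Hoxa5 in the second they were -0.16 with 4 groups without replicate 3 and -0.098 without replicate 3, in a range of -0.098 to 1.797. The list of printed folds was drawn up after the sign changes of low or unchanged genes were known. At 3 counts or fewer per library, low ligands and receptors cannot be ranked.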

Other observations

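Some ligands and modulators of low level were concentrated in 1 library. Wnt16, a ligand, had 52 of its 63 counts in the first IRES-GFP-labelled library, 79.4% of its summed CPM. Sfrp5, a secreted inhibitor, had 21 of 25 counts in tdT reference 1 (73.4%), and Wnt2, a ligand, 17 of 29 in the first Hoxa5tdTomato library (70.1%). Wnt9a, the only tested member with over 50%, had 142 of 223 counts in the second Hoxa5tdTomato library (60.2%). That is 1 of 31 (3.23%), against 1.67% of all tested genes, and these shares are a description of the libraries.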
